A study of Mus musculus with 35 samples.

Results

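A set of 10 genes known mainly from cell types other than lymphocytes was followed through RNA-seq libraries of CD8 T cells from mice with and without intact Dot1l. They were Ncald, Glis3, Kcnj8, Atp8a2, Adamtsl2, Fkbp10, Pdgfb, Sulf2, Gstm1 and Ryr3, out of 52636 genes in the count table and 10296 with enough counts to be tested. The genes were chosen by their measured values, as near silent in WT and raised in KO libraries, with no numeric threshold, so their KO against WT differences describe the choice and carry no p-value here. All 10 had enough counts to be tested, but the filter on low counts used the KO libraries too, and Fkbp10 and Sulf2 passed it only through them.

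The cells came from C57BL/6 mice of 3 genotypes that all carried Lcre+/-, by its name a Cre recombinase. WT mice had the genotype Lcre+/-;Dot1Lwt/wt, Het mice Lcre+/-;Dot1Lfl/wt and KO mice Lcre+/-;Dot1Lfl/fl, so the controls carried the Cre as well, and fl marks a copy that Cre can cut. From each genotype 3 subsets were sorted, which were thymic cells at the CD8 single positive stage and 2 spleen populations, naive (CD44-, CD62L+) and memory (CD44+, CD62L+). The labels give no age, do not say whether a library is 1 animal or a pool, and do not name the promoter of the Cre. P-values therefore measure only the spread between these samples. Every group held libraries called male and libraries called female by their Xist and Y-linked counts, so this spread was not only technical. There were 35 libraries in 9 groups of 4, except for 3 in WT thymus, with 4809509 to 16879636 counts each. Of them 24 were called male and 11 female. The female ones were replicate 3 in each KO and Het group, replicates 2 and 3 in WT naive and memory cells, and replicate 2 in WT thymus, so the mix of sexes differed between genotypes. Levels are in CPM, counts scaled to the size of the library, and are given as mean ± SD over libraries, and differences are log2 fold changes ± standard error (SE).

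Dot1l encodes the only known enzyme that methylates lysine 79 of histone H3, a mark found along transcribed genes. In T cells it is known for its part in keeping cell identity. The 10 genes encode proteins of unrelated function. Glis3 is a transcription factor of pancreas, kidney and thyroid. Pdgfb, Sulf2 and Adamtsl2 act outside the cell, Fkbp10 folds collagen in the endoplasmic reticulum, Kcnj8, Atp8a2 and Ryr3 sit in membranes, and Ncald and Gstm1 are cytosolic proteins of neurons and of detoxifying tissues such as liver.

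Promoter windows from RefSeq (GRCm38.p6, from 250 bases before to 50 after a transcription start) matched 5 of the 10 genes, namely Glis3, Kcnj8, Adamtsl2, Sulf2 and Gstm1. Shown are those of Glis3 and Sulf2, which were low in every WT group and had higher means in every KO group, and that of Adamtsl2, which went the other way in thymus. They lie at chr19:28680028-28680327 (minus strand), chr2:166155634-166155933 (minus strand) and chr2:27079129-27079428 (plus strand) and read 5′ to 3′, with capitals marking CpG pairs.
Glis3: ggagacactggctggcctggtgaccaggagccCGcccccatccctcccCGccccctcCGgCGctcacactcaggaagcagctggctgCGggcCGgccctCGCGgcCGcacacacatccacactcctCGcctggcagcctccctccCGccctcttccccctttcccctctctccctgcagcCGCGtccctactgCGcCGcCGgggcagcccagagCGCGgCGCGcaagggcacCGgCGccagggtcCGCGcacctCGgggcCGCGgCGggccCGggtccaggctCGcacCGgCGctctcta
Sulf2: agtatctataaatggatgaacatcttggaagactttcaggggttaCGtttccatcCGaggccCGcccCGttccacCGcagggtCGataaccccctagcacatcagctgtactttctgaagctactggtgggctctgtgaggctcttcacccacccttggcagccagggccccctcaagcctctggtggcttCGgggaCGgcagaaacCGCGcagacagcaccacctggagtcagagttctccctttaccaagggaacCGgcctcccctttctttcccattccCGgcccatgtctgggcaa
Adamtsl2: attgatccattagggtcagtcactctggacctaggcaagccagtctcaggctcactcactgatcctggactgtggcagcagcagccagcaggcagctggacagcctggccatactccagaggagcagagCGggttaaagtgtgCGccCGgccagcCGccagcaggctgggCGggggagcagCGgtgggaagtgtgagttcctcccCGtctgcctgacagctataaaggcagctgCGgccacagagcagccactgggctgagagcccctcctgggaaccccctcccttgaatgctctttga

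The Glis3 window held 32 CpG pairs, more than 90.5% of the 32817 windows in the table, whose median was 7. The Sulf2 window shown held 12, more than 60.4% of the windows, and the Adamtsl2 window held 8, more than 51.4%. A second Sulf2 window, at chr2:166155236-166155535 (minus strand) and not shown, held 26. Adamtsl2 had TATAAA at position -30 (the start base being 0), a motif found on either strand in 13.6% of windows, and CTTTGA, the motif of TCF and LEF factors, at position 44 (16.0% of windows). The Sulf2 window shown had TATAAA at position -244, and the second Sulf2 window had neither motif. The motifs of RUNX (TGTGGT, 16.8% of windows), T-box (GGTGTGA, 3.98%) and ETS factors (CCGGAA, 14.9%) were looked for on both strands. They were in none of the 3 windows shown, nor in the second Sulf2 window.

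The sorted cells carried CD8 T cell genes in every group: all 10 of a marker list were detected, with group medians of the summed level between 1315 and 1518 CPM. In KO against WT libraries none of the 10 rose, while 4 fell in memory cells, 2 in thymus and 1 in naive cells. Cd247, the CD3 zeta chain gene, fell in thymus (log2 fold change -0.61, adjusted p = 3.19e-06), naive (-0.68, adjusted p = 1.14e-07) and memory cells (-0.43, adjusted p = 0.000168). Cd8b1 fell in thymus (-0.85, adjusted p = 0.0377) and memory cells (-0.77, adjusted p = 0.0380), and Cd8a (-0.75, adjusted p = 0.0355) and Zap70 (-0.21, adjusted p = 0.0161) fell in memory cells. Cd8a itself was listed at only 5.02 to 11.3 CPM in the WT and KO groups, and some other abundant transcripts had similarly few counts, so a low count in this table cannot be read as a low level in the cell. Dot1l was not lower in the KO libraries (log2 fold changes of 0.20 ± 0.08 for thymus, 0.17 ± 0.08 for naive and 0.01 ± 0.08 for memory cells), and, since the floxed segment is not named in the labels, its count does not check the deletion. Of 10 fibroblast markers, Dcn, Lum and Pdgfra were at 0 in all libraries. The list summed to 11.5 to 12.7 CPM in WT and 11.6 to 26.7 CPM in KO thymus. It summed to 3.25 to 7.64 CPM in WT and 3.23 to 15.7 CPM in KO naive libraries. In memory cells the sums were 2.87 to 4.75 CPM in WT and 3.52 to 6.94 CPM in KO libraries. Of 9 pericyte and smooth muscle markers Rgs5 and Abcc9 were at 0, and the list summed to 12.2 to 20.2 CPM in WT and 21.7 to 24.5 CPM in KO libraries in thymus, 2.30 to 3.50 CPM in WT and 7.43 to 10.9 CPM in KO libraries in naive cells and 1.25 to 2.40 CPM in WT and 2.91 to 5.40 CPM in KO libraries in memory cells. In thymus most of that sum was Notch3, with means of 12.4 CPM in WT and 19.5 CPM in KO libraries (adjusted p = 0.0971). Of the list Pdgfrb rose in all 3 subsets and Notch3 in naive and memory cells, while Acta2 fell in both of these. Of 10 neuron markers Snap25, Syt1, Stmn2, Nefl and Gap43 were at 0, and the summed level, nearly all of it the tubulin gene Tubb3, was 276 to 420 CPM in WT and 497 to 776 CPM in KO thymus. Tubb3 rose in thymus (log2 fold change 0.80, adjusted p = 0.00343) but did not pass in naive (-0.16, adjusted p = 0.651) or memory cells (-0.43, adjusted p = 0.201). B cell markers summed to 7.85 to 17.3 CPM in WT and 15.5 to 26.0 CPM in KO thymus, where Cd79b passed as higher (log2 fold change 1.26, adjusted p = 0.0111). No other marker of the B cell list passed in any subset. In naive cells the list summed to 14.9 to 112 CPM in WT (median 33.3) and 13.03 to 261 CPM in KO libraries (median 31.6). In memory cells the sums were 16.8 to 170 CPM in WT and 13.1 to 74.8 CPM in KO libraries. Of 8 epithelial markers the sum was 0.872 to 2.24 CPM in WT and 4.27 to 7.69 CPM in KO thymus. Most of it was the raised Cdh1, with means of 1.43 CPM in WT and 4.92 CPM in KO thymus. The sum was 0.217 to 0.639 CPM in WT and 1.64 to 2.65 CPM in KO naive libraries, and 1.01 to 2.63 CPM in WT and 3.75 to 7.61 CPM in KO memory libraries. The part of such RNA in the levels of the 10 genes was not tested.

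Not all of the 10 genes fit the description they were chosen by. Glis3, Fkbp10 and Sulf2 had a mean under 1 CPM in all 3 WT subsets and were higher in all 3 KO subsets. Kcnj8, Ncald and Pdgfb were low in WT thymus and naive cells but stood at 3.67, 3.57 and 5.67 CPM in WT memory cells. Adamtsl2, Atp8a2 and Gstm1 were present in WT thymus (14.4, 15.6 and 9.70 CPM), and Adamtsl2 was lower there in KO libraries. Ryr3 was lower in the KO than in the WT libraries of both spleen subsets. In bulk samples, fewer cells of a type and less RNA per cell cannot be told apart.

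**Figure D1:**
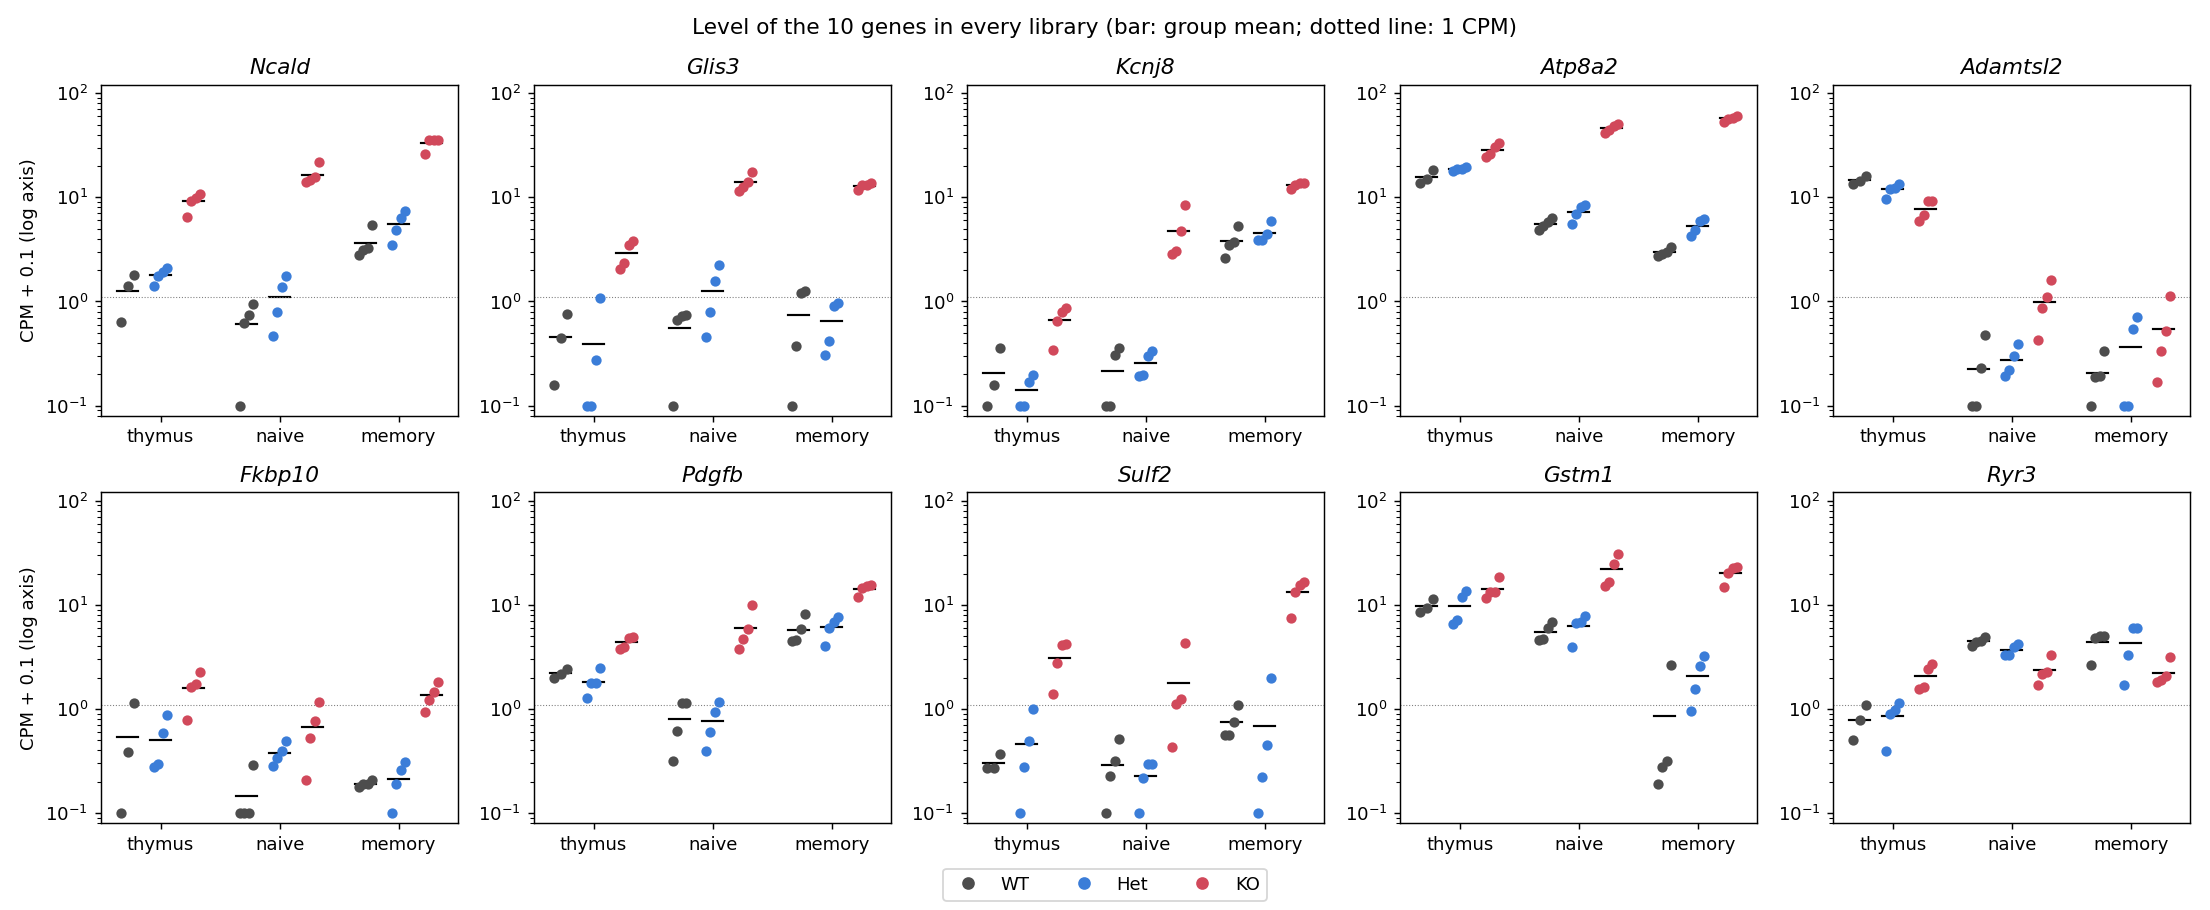
Level of each of the 10 genes in all 35 libraries, as CPM plus 0.1 on a log axis, by subset (thymus, naive and memory) and genotype (WT grey, Het blue, KO red); each point is a library, bars are group means and the dotted line marks 1 CPM. Het points lie beside WT points for most genes, while Adamtsl2 in thymus and Ryr3 in naive cells are lowest in KO libraries.

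As a description, 8 of the 10 genes passed an adjusted p of 0.05 as higher in KO thymus, where 11.9% of all tested genes did, and 1 as lower (6.77% of all). In naive cells 9 passed as higher (11.1% of all) and 1 as lower (7.11% of all), and in memory cells 8 as higher (12.8% of all) and 1 as lower (9.32% of all). The KO libraries all lay above the WT libraries for 7 genes in thymus (17.3% of all tested genes), 6 in naive (11.9%) and 8 in memory cells (14.0%). The median log2 fold change of the 10 was 1.54 in thymus, 3.02 in naive cells and 3.44 in memory cells, against 0.02, 0.00 and 0.01 over all tested genes. Since the genes were selected on this contrast, nothing is read from these shares.

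**Figure D2:**
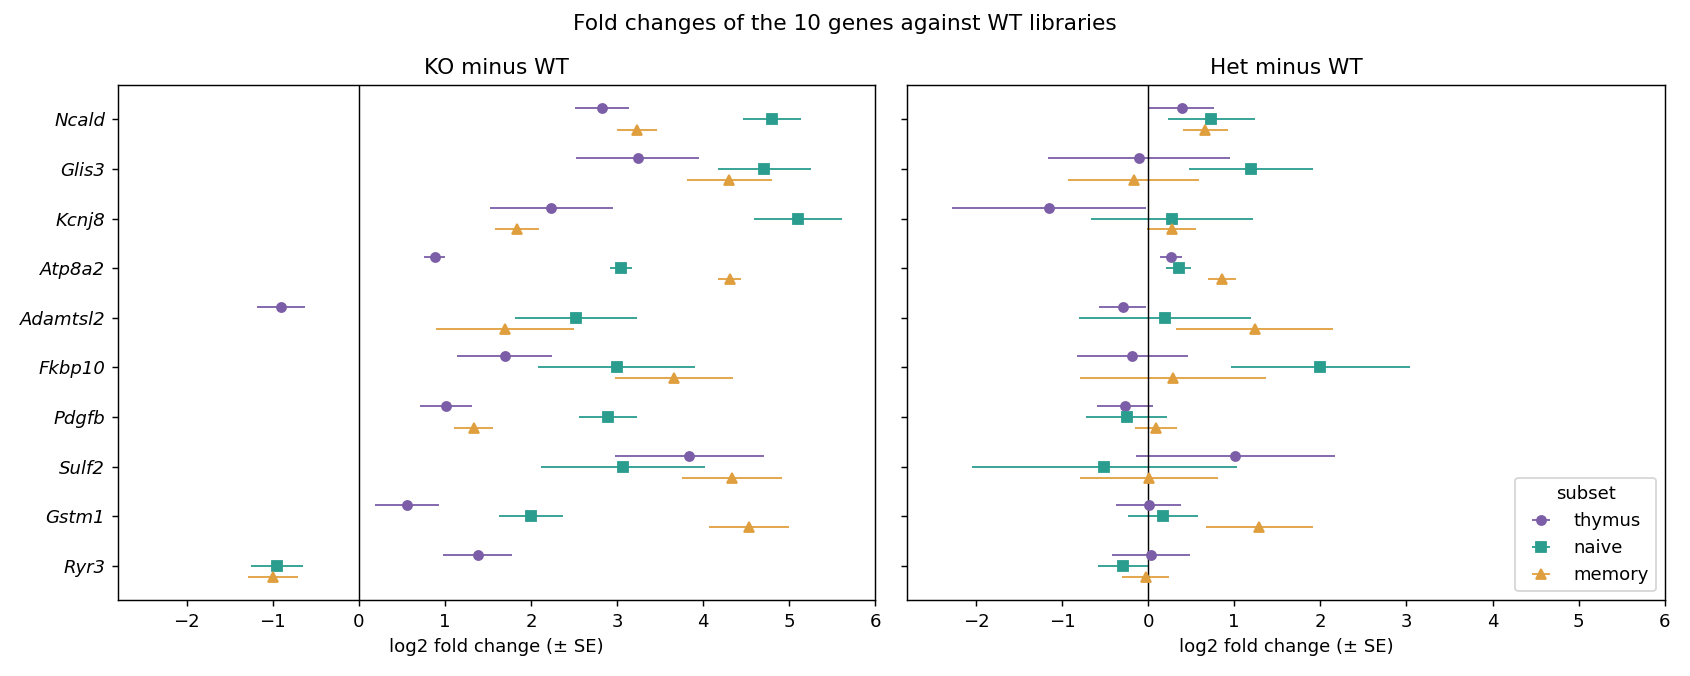
Log2 fold change of the 10 genes against WT libraries (x axis, ± SE) for KO (left) and Het libraries (right), in thymus (circles), naive (squares) and memory cells (triangles). KO values reach 5.10 ± 0.51 for Kcnj8 in naive cells and fall to -0.997 ± 0.29 for Ryr3 in memory cells, while the Het value of Atp8a2 in memory cells is 0.86 ± 0.16.

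Glis3 (ENSMUSG00000052942, chromosome 19, 28258851 to 28680077) encodes a zinc finger transcription factor of the GLI-similar family. In thymus Glis3 stood at 0.666, 0.0581 and 0.345 CPM in the WT, 0, 0, 0.971 and 0.175 CPM in the Het and 3.72, 1.96, 3.36 and 2.23 CPM in the KO libraries. In naive cells Glis3 was at 0, 0.639, 0.568 and 0.628 CPM in the WT, 1.47, 0.693, 0.355 and 2.12 CPM in the Het and 11.3, 13.9, 17.5 and 12.6 CPM in the KO libraries. In memory cells Glis3 had 1.17, 0.277, 1.10 and 0 CPM in the WT, 0.800, 0.320, 0.863 and 0.209 CPM in the Het and 11.6, 13.03, 12.9 and 13.7 CPM in the KO libraries. Every KO library lay above every WT and Het library of its subset, and among KO libraries both spleen subsets had more of it than thymus. Glis3 differed between KO and WT libraries by a log2 fold change of 3.24 ± 0.71 in thymus (3.89 without WT replicate 1 and 2.51 without WT replicate 2), 4.71 ± 0.54 in naive cells and 4.30 ± 0.49 in memory cells. Of 10 GLI-type factors listed as its relatives 7 had no count and 1 was tested, Glis2, which rose in all 3 subsets. Glis2 went from 8.74 ± 2.19 to 15.9 ± 3.10 CPM in thymus (adjusted p = 0.00863, and 0.0782 without WT replicate 1). It went from 4.26 ± 0.697 to 10.2 ± 1.62 CPM in naive cells (adjusted p = 0.000278) and from 3.29 ± 1.12 to 12.01 ± 2.26 CPM in memory cells (adjusted p = 1.71e-07).

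Pdgfb (ENSMUSG00000000489, chromosome 15, 79995874 to 80014977) encodes the B chain of platelet-derived growth factor, a secreted ligand that endothelium and platelets use to signal to pericytes. In thymus Pdgfb stood at 1.86, 2.09 and 2.33 CPM in the WT, 1.68, 2.36, 1.17 and 1.66 CPM in the Het and 3.86, 4.87, 3.64 and 4.70 CPM in the KO libraries. In naive cells Pdgfb was at 0.217, 0.511, 1.04 and 1.05 CPM in the WT, 0.295, 0.495, 1.06 and 0.828 CPM in the Het and 3.63, 4.60, 9.78 and 5.80 CPM in the KO libraries. In memory cells Pdgfb had 4.43, 4.53, 8.01 and 5.74 CPM in the WT, 3.91, 6.72, 5.91 and 7.62 CPM in the Het and 15.3, 11.9, 15.03 and 14.4 CPM in the KO libraries. Pdgfb was thus high in memory cells of every genotype, and the KO libraries lay above the WT libraries in each subset. Pdgfb differed between KO and WT libraries by a log2 fold change of 1.01 ± 0.30 in thymus, 2.89 ± 0.34 in naive cells and 1.33 ± 0.23 in memory cells.

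Pdgfrb, the receptor for this ligand, also rose in KO libraries. It went from 0.490 ± 0.130 to 2.55 ± 0.754 CPM in thymus (adjusted p = 7.88e-05) and from 0.607 ± 0.314 to 5.21 ± 1.16 CPM in naive cells (adjusted p = 8.64e-08). In memory cells the WT libraries had 0.233, 0, 0 and 0.0896 CPM and the KO libraries 3.39, 1.69, 4.51 and 2.96 CPM, a log2 fold change of 4.97 ± 0.52 (adjusted p = 3.58e-10, and 6.17 without WT replicate 1, adjusted p = 1.47e-09). The other receptor chain, Pdgfra, was listed at 0 in all libraries. Of the 12 PDGF and VEGF ligands and receptors listed, 3 were tested. Vegfa, the vascular growth factor, rose in thymus (1.02 ± 0.321 to 4.68 ± 1.70 CPM, log2 fold change 2.23 ± 0.40, adjusted p = 4.37e-05) and in naive cells (log2 fold change 2.14 ± 0.45, adjusted p = 0.000458), but did not pass in memory cells (adjusted p = 0.456). Vegfb did not pass in any subset (lowest adjusted p = 0.229).

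Sulf2 (ENSMUSG00000006800, chromosome 2, 166073089 to 166155663) encodes an extracellular enzyme that removes sulfate groups from heparan sulfate. In thymus Sulf2 stood at 0.266, 0.174 and 0.172 CPM in the WT, 0, 0.902, 0.388 and 0.175 CPM in the Het and 4.13, 2.65, 1.30 and 3.99 CPM in the KO libraries. In naive cells Sulf2 was at 0.217, 0.128, 0 and 0.419 CPM in the WT, 0.196, 0.198, 0.118 and 0 CPM in the Het and 1.01, 0.329, 4.19 and 1.16 CPM in the KO libraries. In memory cells Sulf2 had 0.466, 0.462, 0.658 and 0.986 CPM in the WT, 0.356, 0, 0.123 and 1.88 CPM in the Het and 16.5, 7.31, 13.2 and 15.4 CPM in the KO libraries. The groups did not overlap in thymus and memory cells, but KO naive replicate 2 fell among the WT values, and KO naive replicate 3 stood alone at 4.19 CPM. That library was called female, unlike the other KO naive libraries. It also had the highest level of the memory marker Cd44 in its group (18.0 CPM, against 5.49 to 6.30 in the other KO naive libraries). The part of these differences in its Sulf2, Kcnj8 and Pdgfb levels was not tested. Sulf2 differed between KO and WT libraries by a log2 fold change of 3.84 ± 0.87 in thymus, 3.07 ± 0.95 in naive cells and 4.33 ± 0.58 in memory cells. The naive value was 2.16 without KO naive replicate 3, 1.86 without KO naive replicates 3 and 4, and 4.03 without WT naive replicate 4.

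Of 27 genes of heparan sulfate synthesis, editing and core proteins 10 were tested, of which 1 fell in thymus, 2 rose and 2 fell in naive, and 2 rose and 1 fell in memory cells. Gpc1, which encodes a heparan sulfate core protein, rose in memory cells from 18.3 ± 0.743 to 52.4 ± 9.90 CPM (log2 fold change 1.51 ± 0.18, adjusted p = 3.14e-08). The polymerase gene Ext1 fell in naive cells (-0.53 ± 0.10, adjusted p = 8.36e-05), and the sulfotransferase gene Ndst2 rose in memory cells (0.41 ± 0.06, adjusted p = 3.36e-06). Sulf1, the closest relative of Sulf2, had 1 count in all 35 libraries together.

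Adamtsl2 (ENSMUSG00000036040, chromosome 2, 27079379 to 27108981) encodes a secreted matrix protein that binds fibrillin and latent TGF-beta binding proteins. In thymus Adamtsl2 stood at 14.2, 15.8 and 13.3 CPM in the WT, 13.4, 12.2, 12.04 and 9.55 CPM in the Het and 6.61, 5.89, 9.06 and 9.17 CPM in the KO libraries. In naive cells Adamtsl2 was at 0, 0.128, 0.379 and 0 CPM in the WT, 0.295, 0.198, 0.118 and 0.0920 CPM in the Het and 1.01, 0.767, 0.323 and 1.49 CPM in the KO libraries. In memory cells Adamtsl2 had 0.233, 0.0923, 0 and 0.0896 CPM in the WT, 0.445, 0, 0.616 and 0 CPM in the Het and 0.238, 1.03, 0.0683 and 0.423 CPM in the KO libraries. The gene was thus a thymus transcript in every genotype and lower in KO thymus than in all WT thymus libraries, while in spleen it was near the limit of counting throughout. Adamtsl2 differed between KO and WT libraries by a log2 fold change of -0.90 ± 0.28 in thymus, 2.52 ± 0.71 in naive cells (4.04 without WT replicate 3) and 1.70 ± 0.80 in memory cells (0.81 without KO replicate 2 and 2.40 without WT replicate 1), from 5 WT counts in each spleen subset. Of 12 ADAMTS-like, fibrillin and latent TGF-beta binding protein genes 2 were tested. Ltbp4, which binds latent TGF-beta to the matrix, rose from 0.169 ± 0.0778 to 1.91 ± 0.767 CPM in thymus (log2 fold change 3.42 ± 0.70, adjusted p = 0.000357). Its log2 fold change was 4.26 ± 0.87 in naive cells (adjusted p = 0.000303, and 3.55 without KO replicates 3 and 4, adjusted p = 0.0174) and 3.07 ± 0.54 in memory cells (adjusted p = 2.04e-05, and 3.72 without WT replicate 3, adjusted p = 1.09e-05). Adamtsl4 was lower in thymus (-0.62 ± 0.22, adjusted p = 0.0472), a call lost without any 1 thymus library other than KO replicate 4 (highest adjusted p = 0.168) and in DESeq2 (adjusted p = 0.0589).

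Fkbp10 (ENSMUSG00000001555, chromosome 11, 100415697 to 100424824) encodes a peptidyl-prolyl isomerase of the endoplasmic reticulum that helps collagen fold and become crosslinked. In thymus Fkbp10 stood at 0, 0.291 and 1.03 CPM in the WT, 0.198, 0.486, 0.777 and 0.175 CPM in the Het and 0.688, 1.62, 1.51 and 2.15 CPM in the KO libraries. In naive cells Fkbp10 was at 0, 0, 0.189 and 0 CPM in the WT, 0.295, 0.396, 0.236 and 0.184 CPM in the Het and 0.422, 0.110, 1.08 and 0.663 CPM in the KO libraries. In memory cells Fkbp10 had 0.0777, 0.0923, 0.110 and 0.0896 CPM in the WT, 0.0889, 0.160, 0 and 0.209 CPM in the Het and 1.37, 0.843, 1.71 and 1.13 CPM in the KO libraries. WT and KO libraries overlapped in thymus and naive cells and were apart in memory cells. Fkbp10 differed between KO and WT libraries by a log2 fold change of 1.69 ± 0.55 in thymus (2.91 without WT replicate 3) and 3.66 ± 0.68 in memory cells, where the WT libraries had 4 counts in all. In naive cells 24 KO counts stood against 2 WT counts, all of the latter in WT replicate 3, which is a depth-scaled ratio of 9.23 with an exact 95% interval of 2.29 to 80.6 that covers counting error only.

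Of 19 genes of collagen folding and modification 10 were tested, and 2 rose in thymus, 2 in naive cells and 3 in memory cells. P3h4 encodes a partner of the collagen lysyl hydroxylases. It rose from 2.52 ± 0.868 to 9.08 ± 1.56 CPM in thymus (log2 fold change 1.82 ± 0.23, adjusted p = 1.00e-07), from 1.46 ± 0.355 to 5.59 ± 1.27 CPM in naive (1.88 ± 0.25, adjusted p = 1.32e-07) and from 0.822 ± 0.275 to 9.83 ± 1.53 CPM in memory cells (3.60 ± 0.25, adjusted p = 4.17e-15). Plod2, a lysyl hydroxylase that Fkbp10 assists, rose by 1.79 ± 0.57 in thymus (adjusted p = 0.0215, and 0.116 without WT replicate 3), 2.82 ± 0.71 in naive (adjusted p = 0.00315, and 0.0509 without KO replicates 3 and 4) and 2.67 ± 0.72 in memory cells (adjusted p = 0.00477). The thymus call of Plod2 was also lost without KO replicate 2 (adjusted p = 0.0788) and without WT replicate 1 (adjusted p = 0.0847). Without WT thymus replicate 2 its value was 2.54, and without WT memory replicate 4 it was 3.46. The prolyl hydroxylase gene P4ha2 rose in memory cells (3.39 ± 0.84, adjusted p = 0.00199, and 4.37 without WT replicate 3, adjusted p = 0.00156).

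Kcnj8 (ENSMUSG00000030247, chromosome 6, 142564837 to 142571614) encodes Kir6.1, the pore of a potassium channel that closes with ATP and is found in pericytes and smooth muscle. In thymus Kcnj8 stood at 0, 0.0581 and 0.259 CPM in the WT, 0, 0.0694, 0.0971 and 0 CPM in the Het and 0.551, 0.768, 0.686 and 0.239 CPM in the KO libraries. In naive cells Kcnj8 was at 0, 0.256, 0 and 0.209 CPM in the WT, 0.0982, 0.198, 0.236 and 0.0920 CPM in the Het and 2.95, 2.74, 8.28 and 4.64 CPM in the KO libraries. In memory cells Kcnj8 had 3.42, 3.60, 5.16 and 2.51 CPM in the WT, 3.82, 4.32, 5.79 and 3.76 CPM in the Het and 13.5, 13.5, 12.98 and 11.98 CPM in the KO libraries. Memory cells held the most of it in each genotype, and the KO naive mean (4.65 CPM) stood beside a WT memory mean of 3.67 CPM. Kcnj8 differed between KO and WT libraries by a log2 fold change of 2.24 ± 0.72 in thymus (3.46 without WT replicate 3), where the groups overlapped, 5.10 ± 0.51 in naive cells (4.40 without KO replicates 3 and 4) and 1.84 ± 0.26 in memory cells. Its regulatory subunit gene Abcc9 was listed at 0 in all libraries and Abcc8 had 6 counts in all. Of 16 inward rectifier and sulfonylurea receptor genes 1 was tested, Kcnj13, and it did not pass in any subset (lowest adjusted p = 0.283).

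Atp8a2 (ENSMUSG00000021983, chromosome 14, 59638540 to 60197179) encodes a flippase of brain and retina that moves phosphatidylserine to the inner leaflet of membranes. In thymus Atp8a2 stood at 18.4, 13.7 and 14.7 CPM in the WT, 18.4, 17.8, 18.5 and 19.4 CPM in the Het and 30.4, 25.8, 33.1 and 24.5 CPM in the KO libraries. In naive cells Atp8a2 was at 4.76, 5.75, 6.25 and 5.23 CPM in the WT, 8.25, 5.45, 6.85 and 7.92 CPM in the Het and 50.2, 47.9, 41.6 and 44.6 CPM in the KO libraries. In memory cells Atp8a2 had 2.64, 2.86, 2.74 and 3.23 CPM in the WT, 4.71, 4.16, 5.79 and 6.06 CPM in the Het and 52.99, 57.8, 56.5 and 60.9 CPM in the KO libraries. In WT cells the level was highest in thymus and lowest in memory cells, and in KO cells the order was turned around. Atp8a2 differed between KO and WT libraries by a log2 fold change of 0.88 ± 0.12 in thymus, 3.04 ± 0.13 in naive cells and 4.31 ± 0.13 in memory cells, with no overlap of libraries. Of 16 flippases and CDC50 subunits 11 were tested, of which 1 fell in thymus, 2 fell in naive, and 4 rose and 1 fell in memory cells, with log2 fold changes between -0.71 and 0.55. Among them Atp10d fell in naive (-0.54 ± 0.10, adjusted p = 3.34e-05) and memory cells (-0.71 ± 0.10, adjusted p = 1.55e-07) and Atp10a rose in memory cells (0.55 ± 0.13, adjusted p = 0.00148). Tmem30a, which encodes the subunit that flippases need to leave the endoplasmic reticulum, did not pass in any subset (lowest adjusted p = 0.309).

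Ryr3 (ENSMUSG00000057378, chromosome 2, 112631355 to 113217096) encodes a ryanodine receptor, a channel that releases calcium from the endoplasmic reticulum in brain and muscle. In thymus Ryr3 stood at 0.399, 0.988 and 0.690 CPM in the WT, 0.297, 1.04, 0.874 and 0.789 CPM in the Het and 2.34, 1.45, 2.61 and 1.51 CPM in the KO libraries. In naive cells Ryr3 was at 3.90, 4.34, 4.83 and 4.40 CPM in the WT, 3.83, 3.17, 3.19 and 4.14 CPM in the Het and 1.60, 2.08, 2.15 and 3.23 CPM in the KO libraries. In memory cells Ryr3 had 4.97, 4.71, 2.52 and 4.93 CPM in the WT, 3.20, 1.60, 5.91 and 5.95 CPM in the Het and 1.72, 1.78, 3.08 and 1.97 CPM in the KO libraries. KO libraries were higher than all WT libraries in thymus and lower than all of them in naive cells, and the KO means of the 3 subsets were 1.98, 2.27 and 2.14 CPM. Ryr3 differed between KO and WT libraries by a log2 fold change of 1.38 ± 0.40 in thymus, -0.95 ± 0.30 in naive cells and -0.997 ± 0.29 in memory cells, where the groups overlapped. Ryr3 shares 916 bases of exon with Aven on the opposite strand, and no source used here gives the strand setting of the counting, so reads of the pair may not be told apart. Aven stood at 1.64 ± 1.06 CPM in WT and 0.927 ± 0.355 CPM in KO naive libraries and did not pass in any subset (lowest adjusted p = 0.0879).

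Of 15 intracellular calcium release channels and regulators 7 were tested, of which 2 rose and 1 fell in thymus, 1 rose in naive, and 2 rose and 2 fell in memory cells. Ryr1, the ryanodine receptor of skeletal muscle, rose in thymus from 0.583 ± 0.267 to 2.28 ± 0.331 CPM (log2 fold change 1.85 ± 0.45, adjusted p = 0.00243). In memory cells it rose by 1.19 ± 0.37 (adjusted p = 0.015), a call lost without KO replicate 1, WT replicate 3 or WT replicate 4 (highest adjusted p = 0.0719). Asph, whose gene also encodes the calcium store protein junctin, rose in all 3 subsets, by 2.07 ± 0.50 in thymus (adjusted p = 0.00264), 1.26 ± 0.40 in naive and 2.15 ± 0.42 in memory cells (adjusted p = 0.000137). The naive call of Asph (adjusted p = 0.0218) was lost without KO replicate 4, WT replicate 3 or WT replicate 4, with a highest adjusted p of 0.114, and without KO replicates 3 and 4 (adjusted p = 0.120). Itpr1, an inositol trisphosphate receptor used by T cells, fell in memory cells (-0.33 ± 0.07, adjusted p = 0.000273), and Itpr2 fell in thymus (-0.34 ± 0.08, adjusted p = 0.00108). The memory call of Itpr2 was lost without KO replicate 3 or 4 or any 1 WT memory library (highest adjusted p = 0.132). It was also lost with RLE size factors (adjusted p = 0.0549), no filter (adjusted p = 0.0879), estimates that were not robust (adjusted p = 0.0518) and sex as a covariate (adjusted p = 0.0534).

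Ncald (ENSMUSG00000051359, chromosome 15, 37366175 to 37792570) encodes neurocalcin delta, a calcium sensor of neurons. In thymus Ncald stood at 0.533, 1.69 and 1.29 CPM in the WT, 1.98, 1.80, 1.65 and 1.31 CPM in the Het and 6.33, 9.22, 9.82 and 10.8 CPM in the KO libraries. In naive cells Ncald was at 0, 0.639, 0.852 and 0.523 CPM in the WT, 0.688, 1.29, 1.65 and 0.368 CPM in the Het and 15.4, 14.02, 21.6 and 14.7 CPM in the KO libraries. In memory cells Ncald had 3.18, 2.68, 5.38 and 3.05 CPM in the WT, 7.29, 3.36, 4.81 and 6.27 CPM in the Het and 35.4, 35.2, 35.1 and 26.2 CPM in the KO libraries. No WT or Het library reached a KO library of its subset, and memory cells held the most in each genotype. Ncald differed between KO and WT libraries by a log2 fold change of 2.82 ± 0.31 in thymus, 4.80 ± 0.34 in naive cells and 3.23 ± 0.24 in memory cells. Of 12 neuronal calcium sensor genes 5 were tested, of which 1 fell in thymus and 1 rose in naive cells. Hpcal1 fell in thymus (-0.33 ± 0.09, adjusted p = 0.00604, and 0.0516 without WT replicate 2). Kcnip2, a subunit of potassium channels, rose in naive cells (0.97 ± 0.35, adjusted p = 0.0499), a call lost without KO replicate 3 or 4 or WT replicate 1, 2 or 4 (highest adjusted p = 0.211) and without KO replicates 3 and 4 (adjusted p = 0.497). Kcnip3 stood at 2.52 ± 0.860 CPM in WT and 6.0001 ± 2.29 CPM in KO memory cells and did not pass (adjusted p = 0.0556).

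Gstm1 (ENSMUSG00000058135, chromosome 3, 108012255 to 108017973) encodes a mu class glutathione transferase, an enzyme of detoxification. In thymus Gstm1 stood at 11.3, 9.24 and 8.54 CPM in the WT, 11.8, 6.38, 7.09 and 13.5 CPM in the Het and 13.2, 11.5, 18.6 and 13.1 CPM in the KO libraries. In naive cells Gstm1 was at 4.55, 6.77, 5.87 and 4.61 CPM in the WT, 7.66, 3.86, 6.74 and 6.53 CPM in the Het and 30.98, 16.6, 15.1 and 24.9 CPM in the KO libraries. In memory cells Gstm1 had 2.56, 0.0923, 0.219 and 0.179 CPM in the WT, 3.11, 1.44, 0.863 and 2.51 CPM in the Het and 14.6, 20.2, 22.3 and 22.8 CPM in the KO libraries. In WT cells the level fell off from thymus to memory cells, whereas the KO means were 14.1, 21.9 and 19.997 CPM. Gstm1 differed between KO and WT libraries by a log2 fold change of 0.56 ± 0.37 in thymus, 1.998 ± 0.37 in naive cells and 4.53 ± 0.47 in memory cells (6.83 without WT memory replicate 1, which held 33 of the 38 WT memory counts). Of 23 glutathione transferases 9 were tested, and only Gstm7 passed, in naive cells (2.92 ± 0.81, adjusted p = 0.00909, and 3.89 without WT replicate 4, adjusted p = 0.00871) and in memory cells. The naive call was lost without KO replicates 3 and 4 (2.31, adjusted p = 0.140). In memory cells Gstm7 had no count in WT and 0.380 ± 0.380 CPM in KO libraries (adjusted p = 0.00995, and 0.0564 without KO replicate 1). The mu class genes share much of their sequence, and how the counting treated reads that fit several of them is not given in the sources used here. Gstm2 and Gstm4, on either side of Gstm1, did not pass in any subset (lowest adjusted p = 0.212).

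Per kilobase of exon, which takes out gene length, Gstm1 had the highest listed level of the 10 in KO naive and memory cells (14.9 and 13.6 CPM per kb). Kcnj8 (5.10), Ncald (3.84), Atp8a2 (3.70) and Pdgfb (3.40 CPM per kb) followed in KO memory cells, ahead of Sulf2 (2.23) and Glis3 (1.45). Fkbp10 (0.430), Ryr3 (0.113) and Adamtsl2 (0.0551 CPM per kb) were lowest there. These are levels as counted in this table, with the limits given above for low counts and for reads shared by mu class genes.

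Over the 10 lists, 162 relatives and partners were named, 35 had no count and 59 were tested. In KO against WT libraries 8 rose and 5 fell in thymus, 11 rose and 4 fell in naive, and 15 rose and 4 fell in memory cells. The share of all tested genes that passed in either direction was 18.6% in thymus, 18.2% in naive cells and 22.2% in memory cells. The median log2 fold change of the 59 was 0.04 in thymus, 0.07 in naive cells and 0.12 in memory cells, against 0.02, 0.00 and 0.01 over all tested genes. Relatives that passed in 1 or more subsets with a log2 fold change beyond 1 were Ltbp4, Pdgfrb, P3h4, Plod2, P4ha2, Vegfa, Gstm7, Asph, Ryr1, Glis2 and Gpc1.

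**Figure D3:**
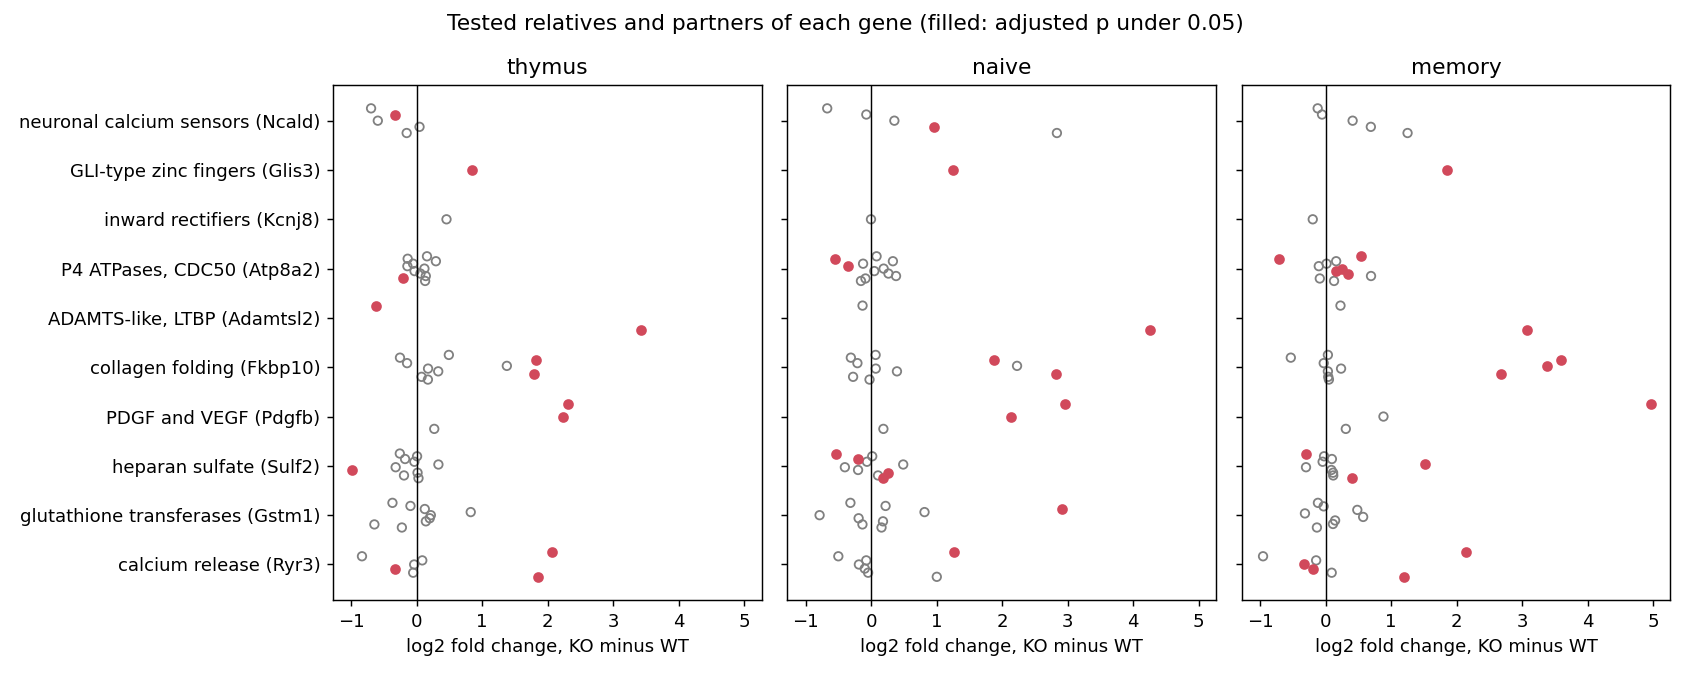
Log2 fold change of KO against WT (x axis) for the 59 tested relatives and partners of the 10 genes, 1 point a gene, by list (y axis) and subset (panels); filled points had an adjusted p under 0.05, and Gstm7 in memory cells is left out because its WT libraries had no count. Most open points lie near 0, and filled points far to the right include Ltbp4, Pdgfrb and P3h4.

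The Het libraries, which the choice of genes did not use, were compared with the same WT libraries that it did use. A low WT level is favoured by that choice, and with it a Het level above WT, so these p-values are not independent of how the genes were chosen. Fkbp10 and Sulf2 also passed the filter on low counts only through KO libraries. Of the WT and Het libraries, only WT thymus replicate 3 exceeded 1 CPM for Fkbp10 (1.03 CPM). For Sulf2 only Het memory replicate 4 did (1.88 CPM). In thymus and in naive cells none of the 10 genes passed the edgeR test, where 0.0% of all tested genes did. At an unadjusted p under 0.05 there was 1 of the 10 in thymus (636 of all tested genes) and 1 in naive cells (275 of all), Atp8a2 in both. DESeq2 called none of the 10 in these subsets. In memory cells 1 of the 10 passed, Atp8a2, which was also the only one of all tested genes to do so (0.00971%), while 3 of the 10 and 527 of all had an unadjusted p under 0.05.

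Atp8a2 was at 2.87 ± 0.255 CPM in WT and 5.18 ± 0.894 CPM in Het memory cells (n = 4 each), a log2 fold change of 0.86 ± 0.16 (adjusted p = 0.0486), with every Het library above every WT library. DESeq2 called it as well, but the call was lost without any 1 memory library other than Het replicate 2 (highest adjusted p = 0.233). It was also lost with estimates that were not robust (adjusted p = 0.0545) and with only the libraries compared (adjusted p = 0.934). In thymus the Het libraries stood at 18.5 against 15.6 CPM (log2 fold change 0.27 ± 0.12, adjusted p = 0.8) and in naive cells at 7.12 against 5.50 CPM (0.35 ± 0.15, adjusted p = 1). For Ncald the Het memory value was 0.66 ± 0.26 (adjusted p = 0.898) and for Gstm1 it was 1.29 ± 0.62 (adjusted p = 0.974, and a value of 3.60 without WT replicate 1, adjusted p = 0.0904). The differences that did not pass are not shown to be absent. For Glis3 the 95% interval of the log2 difference between Het and WT was -2.18 to 1.97 in thymus, -0.21 to 2.60 in naive cells and -1.66 to 1.33 in memory cells, and for Sulf2 in memory cells it was -1.57 to 1.59.

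Set on the distance from WT to KO, the Het mean of Atp8a2 lay 4.27% of the way in memory, 3.99% in naive and 22.9% in thymus cells. That of Ncald lay 6.32%, 3.11% and 6.58% of the way, and that of Glis3 -0.71%, 5.24% and -2.83% in the same order. The positions furthest along were those of Adamtsl2 in memory cells (48.0%) and Fkbp10 in naive cells (44.3%), both from few counts and with a higher KO than WT mean, and those of Adamtsl2 in thymus (39.2%) and Ryr3 in naive cells (37.3%), where KO libraries were lower than all WT libraries. These positions are descriptions, since the KO and WT means enter them.

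Differences between subsets were tested within Het libraries, in a fit without pairing of libraries. Within KO libraries, whose levels entered the choice of the genes, they are given as a description with no p-value, and nothing is read from the shares. From thymus to naive cells in KO libraries 4 of the 10 genes passed an adjusted p of 0.05 as higher (22.4% of all tested genes) and 2 as lower (21.7% of all). Those higher were Kcnj8 (log2 difference 3.01 ± 0.36, and 2.31 without KO naive replicates 3 and 4), Glis3 (2.31 ± 0.40), Ncald (0.84 ± 0.21) and Atp8a2 (0.70 ± 0.11). Adamtsl2 (-3.04 ± 0.35) and Fkbp10 (-1.42 ± 0.50, and -2.41 without KO naive replicates 3 and 4) were lower, and Fkbp10 did not pass without KO naive replicate 1, KO naive replicate 2 or KO thymus replicate 4.

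In Het libraries the same step, tested, gave 2 genes that rose (19.8% of all) and 3 that fell (19.7% of all). Ryr3 rose from 0.750 ± 0.320 to 3.58 ± 0.483 CPM (2.20 ± 0.34, adjusted p = 1.28e-06). Atp8a2 fell from 18.5 ± 0.629 to 7.12 ± 1.26 CPM (-1.38 ± 0.12, adjusted p = 3.76e-12), where in KO libraries it was higher in naive cells. Adamtsl2 (-5.97 ± 0.46, adjusted p = 2.17e-13) and Pdgfb (-1.40 ± 0.38, adjusted p = 0.00327) fell. Glis3 was higher (2.14 ± 0.75, adjusted p = 0.0244), a call lost without Het naive replicate 1 or 4 or Het thymus replicate 1, 2 or 4 (highest adjusted p = 0.126) and with no filter on low counts (adjusted p = 0.0575), and the value was 4.16 without Het thymus replicate 3. Whether a subset difference differs between genotypes was not tested, since the genes were picked for genotype differences.

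From naive to memory cells in KO libraries, again as a description, 5 of the 10 genes passed as higher (8.69% of all tested genes) and none as lower (8.61% of all). Sulf2 was at 1.67 ± 1.72 CPM in naive and 13.1 ± 4.10 CPM in memory cells, a log2 difference of 2.99 ± 0.51, with values of 3.90 without KO naive replicate 3 and 4.19 without KO naive replicates 3 and 4. Kcnj8 (1.49 ± 0.25, and 2.18 without KO naive replicates 3 and 4), Pdgfb (1.26 ± 0.23) and Ncald (1.01 ± 0.20) were higher too, with no overlap. Atp8a2 was higher by 0.31 ± 0.10, which did not pass without any 1 of these libraries other than the 2 numbered 1, nor without KO naive replicates 3 and 4. Adamtsl2 had the lowest difference of the 10 (-1.22 ± 0.53). Glis3 (-0.80 to 0.57) and Gstm1 (-0.77 to 0.48) had 95% intervals of the log2 difference on both sides of 0.

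In Het libraries 3 of the 10 rose from naive to memory cells (8.31% of all) and 2 fell (8.57% of all). Kcnj8 rose from 0.156 ± 0.0722 to 4.42 ± 0.946 CPM (4.75 ± 0.47, adjusted p = 1.35e-10), Pdgfb from 0.670 ± 0.342 to 6.04 ± 1.58 (3.16 ± 0.34, adjusted p = 9.80e-10) and Ncald from 0.999 ± 0.580 to 5.43 ± 1.72 CPM (2.52 ± 0.33, adjusted p = 1.92e-07). These 3 genes were thus higher in memory than in naive cells of mice with an intact Dot1l copy. Gstm1 fell by 1.56 ± 0.46 (adjusted p = 0.0172), a call lost without Het memory replicate 3 (adjusted p = 0.0677) or Het naive replicate 1 (adjusted p = 0.0517). Atp8a2 was lower (-0.45 ± 0.15, adjusted p = 0.0259), a call lost without Het memory replicate 1 or 2 or Het naive replicate 1 or 4 (highest adjusted p = 0.112) and with only the libraries compared (adjusted p = 0.134) or the replicate number as a block (adjusted p = 0.112).

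Between thymus and memory cells of KO libraries, as a description, 6 genes passed as higher in memory cells (23.6% of all) and 1 as lower (23.9% of all). Those higher were Kcnj8 (4.50 ± 0.33), Glis3 (2.20 ± 0.40), Sulf2 (2.16 ± 0.47), Ncald (1.85 ± 0.21), Pdgfb (1.73 ± 0.23) and Atp8a2 (1.003 ± 0.11), and Adamtsl2 was lower (-4.25 ± 0.40, and -5.15 without KO memory replicate 2). In Het libraries 4 rose (22.2% of all) and 3 fell (22.6% of all). Ryr3 (2.44 ± 0.34, adjusted p = 1.03e-07), Pdgfb (1.77 ± 0.28, adjusted p = 1.20e-06) and Ncald (1.72 ± 0.29, adjusted p = 5.37e-06) rose, and so did Kcnj8, with 153 counts in Het memory against 2 in Het thymus (ratio 100.5, exact 95% interval 27.3 to 837, counting error only). Adamtsl2 (-5.32 ± 0.44, and -5.94 without Het memory replicate 3), Gstm1 (-2.20 ± 0.44) and Atp8a2 (-1.83 ± 0.13) fell, with adjusted p values of 0.000141 or lower.

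Across the whole table, 10371 genes with at least 1 count had a mean under 1 CPM in every WT subset. Of these, 164 reached at least 1 CPM and at least 4 times the WT mean plus 0.1 CPM in 1 or more KO subsets, and 162 of them were protein coding. With WT and KO exchanged the same rule found 8 genes, Plce1, Osbpl6, Dscam, Col6a2, F2rl1, Kcnh5, Cd163l1 and Cnga3. The 164 genes met the rule in memory cells most often (122 genes), against 67 in naive cells and 62 in thymus, and 29 met it in all 3 subsets. Of the 10 genes, Glis3, Sulf2 and Fkbp10 were among the 164. With a WT mean under 0.5 CPM in place of 1 only Fkbp10 of them met the rule, and at 8 times the WT mean only Glis3 and Sulf2 did. Glis3 was the third and Sulf2 the fourth by highest KO mean, after the histone gene Hist1h2bq (50.2 CPM in KO thymus) and Kalrn (16.8 CPM in KO memory cells), which encodes a guanine nucleotide exchange factor of neurons. Hist1h2bq belongs to a family of near-identical genes, whose reads the counting could split. These other genes were singled out after their values were seen.

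With at least 8 times the WT mean 79 genes met the rule, against 5 in reverse. The Het libraries showed hardly any of this. Going from WT to Het 2 genes met the same rule and going from Het to WT none did, and none of the 10 was among them. Going from Het to KO 126 genes met it, against 10 in reverse, and 106 were in both lists, which is 84.1% of the Het list and 64.6% of the WT list. The KO libraries are shared by the lists. No test was made of these counts.

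**Figure D4:**
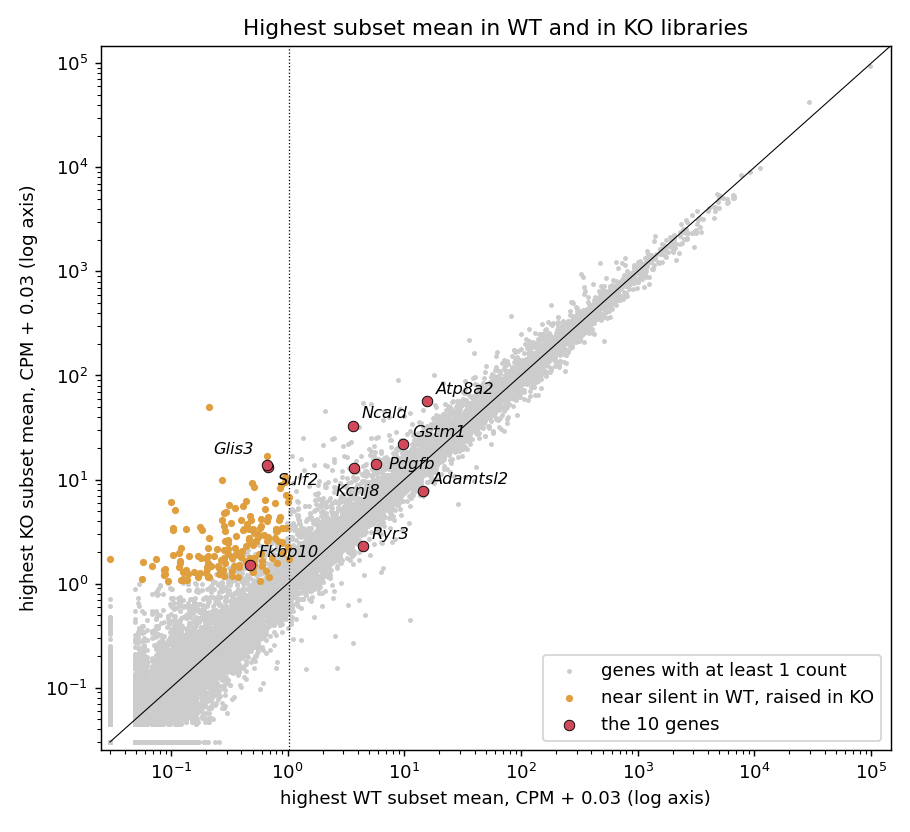
Highest subset mean in WT libraries (x axis) against the highest subset mean in KO libraries (y axis), in CPM with a small offset on log axes, for every gene with at least 1 count; orange points are the 164 genes near silent in WT and raised in KO, red points the 10 genes, the dotted line marks 1 CPM and the solid line equal levels. Glis3, Sulf2 and Fkbp10 lie among the orange points, Ncald, Kcnj8, Pdgfb, Atp8a2 and Gstm1 lie to their right above the line, and Ryr3 and Adamtsl2 lie below it.

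The nearest protein coding genes on either side of each of the 10, by start coordinate, were examined (GENCODE M21, GRCm38), and some of them overlap it. Of these 20 neighbours 10 were tested and 5 were listed at 0 in all libraries. In KO against WT libraries 1 rose and 1 fell in thymus, and 2 rose and 2 fell in each of naive and memory cells, beside the shares of all tested genes given above. P3h4 was the only one that passed in all 3 subsets. Its gene lies 860 bases from Fkbp10 on the opposite strand, so that the 2 are transcribed away from each other. On the other side of Fkbp10, Nt5c3b stood at 19.2 ± 1.63 CPM in WT and 23.7 ± 2.78 CPM in KO memory cells (log2 fold change 0.31 ± 0.10, adjusted p = 0.0168, and 0.116 without KO replicate 3), a call also lost without KO replicate 1, WT replicate 1 or WT replicate 3, and did not pass in thymus (adjusted p = 0.062) or naive cells (adjusted p = 0.532). Nt5c3b and Fkbp10 share 193 bases of exon on opposite strands.

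**Figure D5:**
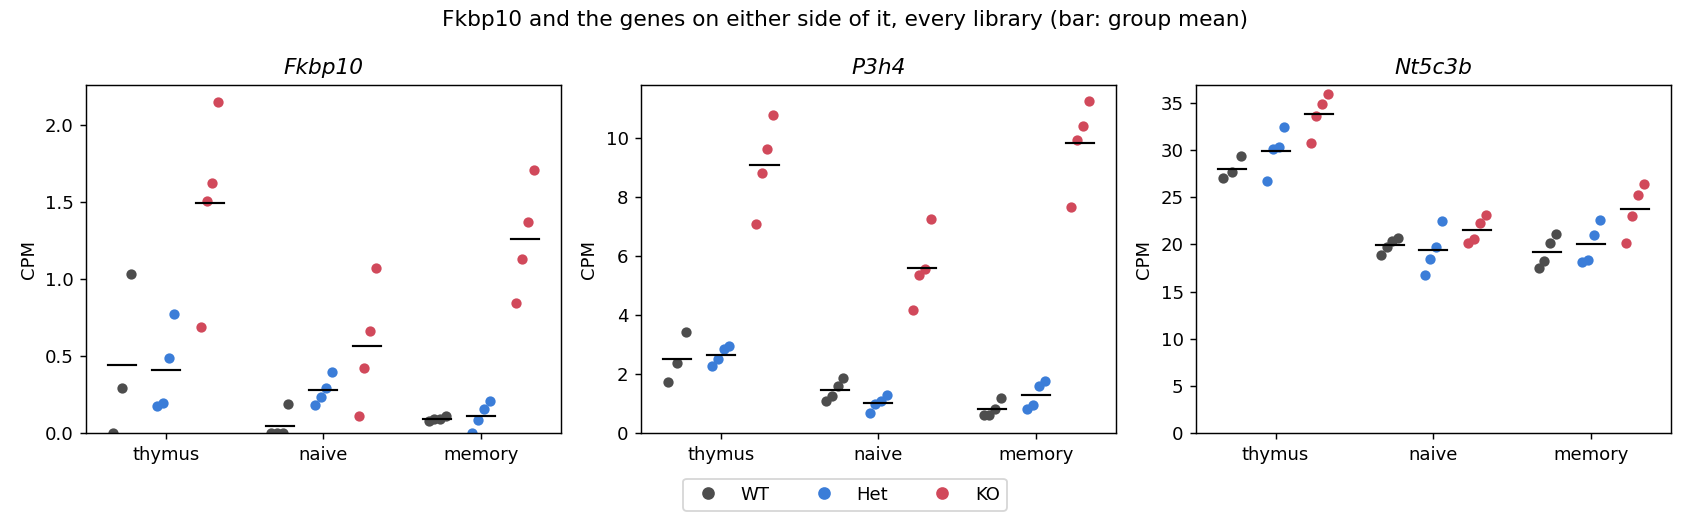
Level in CPM (y axis, from 0) of Fkbp10 and of the genes on either side of it, P3h4 and Nt5c3b, in every library by subset and genotype (WT grey, Het blue, KO red), with bars at group means. P3h4 is higher in every KO library than in any WT or Het library of its subset, while Nt5c3b differs little between genotypes.

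Among the other neighbours, Ncoa3, a nuclear receptor coactivator gene that shares 154 bases of exon with Sulf2 on the opposite strand, fell in memory cells from 132 ± 9.82 to 96.4 ± 10.9 CPM (adjusted p = 0.0011). Its fall in naive cells (-0.32 ± 0.11, adjusted p = 0.0304) was lost without KO replicate 3 (adjusted p = 0.176), KO replicate 2, WT replicate 1 or WT replicate 2. The ribosomal protein gene Rpl3, 62813 bases from Pdgfb, fell in naive (-0.31 ± 0.08, adjusted p = 0.00316) and memory cells (-0.29 ± 0.08, adjusted p = 0.00561). Prex1, 410678 bases from Sulf2, rose in naive cells (0.26 ± 0.06, adjusted p = 0.00199). Rfx3, 247684 bases from Glis3, was lower in thymus (-0.25 ± 0.08, adjusted p = 0.0248), a call lost without KO replicate 2, KO replicate 4 or WT replicate 2 (highest adjusted p = 0.180).

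Over the 35 libraries, each gene's log2 level was correlated with the mean of the other 9, as a description across libraries that share subset and genotype. The genes were chosen as low in WT and raised in KO libraries, so agreement among them is in part built in by the choice. The same holds for the profile of their mean, to which other genes were compared. Ncald (0.894), Sulf2 (0.826), Glis3 (0.800), Atp8a2 (0.765) and Fkbp10 (0.712) followed the rest most closely by Pearson's r, then Pdgfb (0.682), Kcnj8 (0.554) and Gstm1 (0.450), while Adamtsl2 (-0.02) and Ryr3 (-0.259) did not follow it. Outside the 10, the tested genes most like their mean profile were Phldb1 (r = 0.960), Nrp1 (r = 0.960), Pygl (r = 0.952), Fut8 (r = 0.943) and Bicd1 (r = 0.932). On this scale, the log2 CPM with a prior count of 2, single genes were most like Fgfr1 (Glis3, r = 0.896), Atp2b4 (Kcnj8, r = 0.958), Eno2 (Atp8a2, r = 0.954), Tdrd5 (Adamtsl2, r = 0.941), Gfra1 (Fkbp10, r = 0.851), Osbpl3 (Pdgfb, r = 0.959), Zeb2 (Sulf2, r = 0.856), Tsc22d1 (Gstm1, r = 0.909) and Cdc14b (Ryr3, r = 0.857). With a prior count of 0.5 other genes came first for Glis3 (Clic5), Kcnj8 (Dock9), Adamtsl2 (Zmym3), Fkbp10 (Nol4l) and Sulf2 (B4galt5), and Nrp1 came first for the mean profile. Over the 9 group means Phldb1 stayed first for the mean profile (r = 0.997), and of the genes named for single members only Osbpl3 stayed first. Atp2b4, a plasma membrane calcium pump gene, stood at 5.50 ± 0.884 CPM in WT and 43.5 ± 9.74 CPM in KO naive cells and at 33.2 ± 3.26 and 74.6 ± 4.15 CPM in memory cells, the same order of these 4 means as in Kcnj8.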

How the data were processed

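RNA was extracted with Trizol and stranded TruSeq mRNA libraries were sequenced on a HiSeq2500 from 1 end over 65 bases, per the labels' protocols. The submitters' processing notes name TopHat2 2.1.0 and HTSeq 0.9.1 and the builds GRCm38 and mm10. How strand was set in the counting, and the annotation release, are not given in the sources used here. The authors deposited a table of raw counts per gene for 35 libraries, with 4809509 to 16879636 counts each (median 10406516), over 52636 genes, of which 52403 were named through GENCODE M21.

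Genes with too few counts were left out with filterByExpr over the 9 groups, which kept 10296. Counts were fitted with edgeR 4.0.16 in R 4.3.3, with TMM normalization, robust quasi-likelihood estimates and the means of the 9 groups as the model, over all 35 libraries. Groups were compared by quasi-likelihood F-tests, with Benjamini-Hochberg adjustment over all tested genes and a threshold of 0.05. CPM used the TMM library sizes, SE is the size of the log2 fold change divided by the root of F, and 95% intervals are approximate, from the SE. The procedure was tested on simulated data. Alternatives were DESeq2 1.42.0, RLE size factors, no filter and a stricter filter, a fit without robust estimates, a fit of only those libraries being compared, sex as a covariate, the replicate number as a block, leaving out each library, and leaving out KO naive replicates 3 and 4. No pair of libraries of a group looked like 1 library deposited more than 1 time (51 pairs, lowest chi-square per gene 4.07).

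The 10 genes, the lists of relatives and markers, and the tests were chosen with earlier results of these data known. Named are all 10 genes, from each list up to 3 tested relatives with the lowest adjusted p and textbook partners, the nearest protein coding gene on either side, and the genes most alike by Pearson correlation; some genes that these rules give are not reported here.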

Additional observations from a re-analysis of the deposited data

Results flagged for a closer look

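In 5 of the 80 sets of 4 libraries that could be examined (10 genes in the 8 groups of 4), 1 library stood far from the other 3 by Dixon's 95% criterion, which chance alone meets in about 1 of 20 sets. Ncald in KO memory replicate 4 was at 26.2 CPM, against 35.1 to 35.4 CPM in the other 3. Glis3 in WT naive replicate 1 was at 0 CPM, against 0.568 to 0.639 CPM. Fkbp10 in WT naive replicate 3 was at 0.189 CPM, from 2 counts, with no count in the other 3. Gstm1 in WT memory replicate 1 was at 2.56 CPM (33 counts), against 0.0923 to 0.219 CPM. Ryr3 in WT memory replicate 3 was at 2.52 CPM (23 counts), against 4.71 to 4.97 CPM. The libraries differed from gene to gene, and the cause was not tested.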

How the results depend on the processing

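No result changed direction under any alternative that was run. Among the counts of calls, Atp8a2 in Het against WT memory cells dropped out, leaving 0 of the 10 genes, with estimates that were not robust, with only the libraries compared, and with the replicate number as a block. In Het libraries, the call of Atp8a2 between naive and memory cells was lost with only the libraries compared (adjusted p = 0.134) and with the block (adjusted p = 0.112), and that of Glis3 between thymus and naive cells with no filter (adjusted p = 0.0575). KO against WT calls of some relatives and neighbours were lost too. Ncoa3 in naive cells did not pass with only the libraries compared (adjusted p = 0.267), nor Rfx3 in thymus with the block (adjusted p = 0.0930). Nt5c3b in memory cells did not pass with no filter (adjusted p = 0.0682). Without robust estimates Kcnip2 in naive cells (adjusted p = 0.0587) and Adamtsl4 in thymus (adjusted p = 0.0507) did not pass, nor did Adamtsl4 with RLE size factors (adjusted p = 0.0511). At 8 times the WT mean, 79 genes were near silent in WT and raised in KO libraries, and 5 in reverse.

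Leaving out 1 library at a time gave 10 to 13 relatives called in KO against WT thymus, 10 to 14 in naive and 14 to 18 in memory cells. The 10 genes gave 0 to 0 calls in Het against WT thymus, 0 to 0 in naive and 0 to 1 in memory cells. Within KO libraries they gave 5 to 7 calls from thymus to naive, 4 to 6 from naive to memory and 7 to 7 from thymus to memory cells. Within Het libraries these were 4 to 6, 3 to 5 and 7 to 8. The near silent genes raised in KO numbered 157 to 175, and 7 to 10 in reverse.

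The labels do not say whether equal replicate numbers mark the same animal. In KO and in Het libraries, those with the same number were called the same sex in every subset. Correlations of same-numbered libraries between memory and naive cells were 0.0995 to 0.322 in KO and 0.0749 to 0.241 in Het. They were 0.00673 to 0.269 between Het naive cells and thymus and 0.0817 to 0.287 between KO and WT naive cells. In no comparison was every pair over 0.1, and the main fit did not pair libraries. With the replicate block the relatives called were 16, 13 and 20 in thymus, naive and memory cells. The 10 genes had 0, 0 and 0 calls in Het against WT, 6, 6 and 8 between KO subsets and 5, 4 and 7 between Het subsets. Single low genes are limited by depth, since Fkbp10, Kcnj8 and Adamtsl2 had 5 or fewer counts in some WT groups.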
